A study of Mus musculus with 3 samples.

Results

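Hal, Sds, Gls2, Cyp2f2, Hsd17b13 and Aldh1b1 are 6 genes of periportal hepatocytes, the liver cells that lie closest to the incoming portal blood. They were taken as a set of named genes and are 6 of 21887 protein-coding genes with a position in the annotation. Chromatin accessibility at them was read by ATAC-seq, in which the transposase Tn5 cuts open DNA and inserts sequencing adapters. Every peak that touched the body of 1 of these genes or the 50 kb on either side was kept. Peaks of the 3 libraries that shared 1 bp or more were merged into regions, and a region with a peak in all 3 libraries is called shared. The 6 windows held 139 of 139455 regions and 91 of 85711 shared regions, and no region lay in more than 1 window.

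All 3 libraries belong to 1 group, EV. These are hepatocytes of wild-type (WT) mice injected with AAV8-TBG-Cre, the empty virus of the study, and harvested 4 days later. AAV8 is an adeno-associated virus that enters liver cells well, and TBG is a promoter active in hepatocytes, so the EV hepatocytes carry Cre recombinase as well. Nuclei came from sorted cells, whose sorting marker is not named. The series was designed around a second virus that adds Sox4, whose libraries were not analysed here, so no treatment is compared. Nothing in the labels ties the libraries to separate animals, so the SDs below may in part be technical. With 1 group of 3 libraries no test was run. An exact paired permutation test over 3 libraries could not give a two-sided p below 0.25. The cells were profiled in bulk, so a lower peak from fewer open cells and one from less opening per cell cannot be told apart, and neither can periportal from pericentral cells.

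Blood enters the liver lobule at the portal vein and leaves at the central vein, and hepatocytes along that path divide their work, which is called zonation. Periportal cells are known for urea synthesis, glucose production and the breakdown of amino acids. Pericentral cells, under Wnt signalling, are known for glutamine synthesis and the oxidation of foreign compounds. Of the 6 genes, Hal encodes histidine ammonia-lyase, which opens histidine breakdown, Sds encodes serine dehydratase, which turns serine into pyruvate, and Gls2 encodes the liver glutaminase, which frees ammonia from glutamine. Cyp2f2 encodes a cytochrome P450 that is a standard marker of the periportal zone in mice. Hsd17b13 encodes a protein of lipid droplets, and Aldh1b1 encodes a mitochondrial aldehyde dehydrogenase.

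The libraries rested on 96066404 to 117450440 tags and 108997 to 119230 peaks. Heights below are normalised pileups, which is the pileup of extended tags at the tallest summit per 1000000 tags of the library. The start of Sox4 stood at 21.9 in the library labelled EV replicate 2, against 1.33 in replicate 1 and 1.14 in replicate 3, so results that turn on that library are given with and without it. Its part in them was not tested. Alb, the serum albumin gene, had start heights of 7.33, 7.92 and 8.31 in replicates 1, 2 and 3, and all 8 hepatocyte markers had a start peak in all 3 libraries. The share over all protein-coding genes was 63.4%. Markers of other liver cells were mostly without such a peak, with 3 of 7 for cholangiocytes, 3 of 7 for stellate cells, 2 of 7 for endothelium and 0 of 7 for Kupffer cells. Those with one were Epcam, Spp1 and Muc1 for cholangiocytes, Col1a1, Lrat and Reln for stellate cells, and Kdr and Tie1 for endothelium. Their mean heights ran from 0.615 at Kdr to 5.09 at Reln. Among the others, Krt19, Cdh5, Clec4f and Dcn had none in any library.

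The upstream sequences of the genes are shown because the start peaks described next lie on them. RefSeq, build GRCm38.p6, gave the 250 bases before the start for Hal at chr10:93488518-93488767 (plus strand), Cyp2f2 at chr7:27119705-27119954 (plus), Hsd17b13 at chr5:103977389-103977638 (minus) and Aldh1b1 at chr4:45798772-45799021 (plus), and 4 of the 6 genes were matched. They run 5′ to 3′ along the gene, and capitals mark matches to 1 of 10 motifs searched on both strands.
Hal: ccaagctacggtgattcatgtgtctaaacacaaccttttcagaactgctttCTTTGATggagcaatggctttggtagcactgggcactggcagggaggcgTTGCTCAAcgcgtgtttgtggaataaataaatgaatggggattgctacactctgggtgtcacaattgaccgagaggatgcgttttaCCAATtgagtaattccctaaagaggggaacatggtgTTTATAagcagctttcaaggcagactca
Cyp2f2: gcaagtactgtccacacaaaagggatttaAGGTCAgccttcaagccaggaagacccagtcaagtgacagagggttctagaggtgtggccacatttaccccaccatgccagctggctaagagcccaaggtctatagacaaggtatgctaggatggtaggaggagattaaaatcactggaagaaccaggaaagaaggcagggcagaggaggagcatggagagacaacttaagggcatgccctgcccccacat
Hsd17b13: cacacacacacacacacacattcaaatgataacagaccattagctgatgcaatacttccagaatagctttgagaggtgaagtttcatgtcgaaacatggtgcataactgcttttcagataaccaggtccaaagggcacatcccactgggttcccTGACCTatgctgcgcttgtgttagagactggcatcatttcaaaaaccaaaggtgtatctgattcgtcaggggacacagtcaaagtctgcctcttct
Aldh1b1: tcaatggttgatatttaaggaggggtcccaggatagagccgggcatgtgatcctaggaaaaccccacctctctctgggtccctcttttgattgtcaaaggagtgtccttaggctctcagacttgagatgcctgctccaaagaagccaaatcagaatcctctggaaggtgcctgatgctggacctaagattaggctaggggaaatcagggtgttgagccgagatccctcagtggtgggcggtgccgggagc

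These 4 sequences were poorer in G and C than most promoters of 250 bases. Their GC content was 45.6% for Hal, 51.6% for Cyp2f2, 44.8% for Hsd17b13 and 53.2% for Aldh1b1, against a median of 55.6% over 21263 promoters. They held 6, 0, 3 and 4 CpG dinucleotides in that order, against a median of 10. The Hal sequence matched 4 motifs. They were the TCF/LEF motif CTTTGAT of the Wnt pathway (in 2.82% of all promoters), the C/EBP motif TTGCNNAA (9.09%), the CCAAT box (35.4%) and, on the reverse strand, the TATA motif TATAAA (11.6%). The C/EBP match spans positions -150 to -143 from the start, and the summits of the Hal start peak fell at -145, -153 and -148 in replicates 1, 2 and 3. The nuclear receptor hexamer AGGTCA (12.8%) was found in Cyp2f2, at -221 to -216, and on the reverse strand in Hsd17b13, at -96 to -91. The summits of Hsd17b13 fell at -89, -84 and -107, beside that match. The summits of Cyp2f2 at 13, -48 and 4 lay away from it. Aldh1b1 matched none, and its summits lay inside the gene at 41, 38 and 39 bases. The motifs of HNF4A (CAAAGTCCA, 0.390%), FOXA (TGTTTNC, 16.0%), HNF1 (0.0611%), CRE (TGACGTCA, 1.92%) and the E-box (CACGTG, 6.63%) were in none of the 4. A match describes letters in these windows and is no proof of a bound factor. The start region covered all 250 bases in Hal, Cyp2f2 and Hsd17b13, and 159 of them in Aldh1b1.

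Every one of the 6 genes had an accessible start. A start peak, within 1000 bp of the annotated start, or of either gene end in Sds and Gls2, was called in all 3 libraries at 6 of 6 genes, against 63.4% of all protein-coding genes (63.1% of those placed by their start and 64.6% of those placed by either end). The heights fell into a tall set of Gls2, Hal and Hsd17b13 and a lower set of Aldh1b1, Cyp2f2 and Sds. Their median was 6.04, against 6.02 over the 13881 genes with a start peak in all 3 libraries, so as a set they were no taller than other open starts. The peak in Cyp2f2 rested on a weak call in the library labelled EV replicate 2. With summits at a −log10 q of 10 or more, 5 of 6 genes had a start peak in all 3 libraries (61.4% of all genes), and with the 50000 strongest peaks of each library 4 of 6 did (54.1%), Sds being the other one lost.

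**Figure D1:**
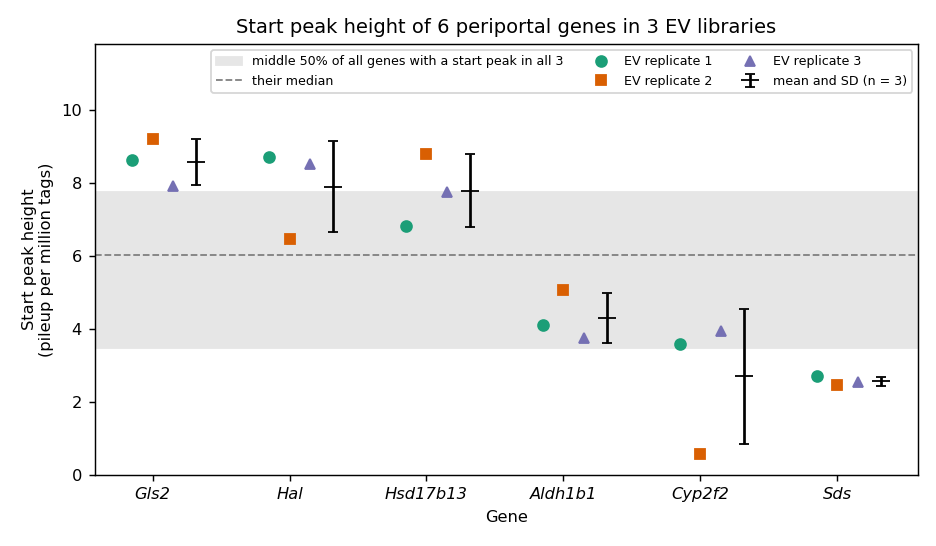
Height of the start peak, in normalised pileup, of the 6 genes in each EV library, with the mean and SD beside the points, over the interquartile range of all genes with a start peak in all 3 libraries. Gls2, Hal and Hsd17b13 average 7.79 to 8.57, and Cyp2f2 is at 0.577 in the library labelled EV replicate 2.

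Of Gls2, Hal and Sds, the 3 members that break down amino acids, Gls2 had the highest mean at its start. Gls2 lies at chr10:128194635-128210004, and its start region, chr10:128193937-128195496, reached 8.62, 9.19 and 7.92 in replicates 1, 2 and 3 (8.57 ± 0.635, SD, n = 3), which is above 85.3% of open starts. Hal lies at chr10:93488768-93516761, and its start region, chr10:93488124-93489349, reached 8.70, 6.46 and 8.52 (7.89 ± 1.25), above 77.2% of open starts. The library labelled EV replicate 2 was the lowest at Hal, and without it the mean was 8.61, above that of Gls2 at 8.27. The ranges of Gls2 and Hal overlap, so their order is within the spread. Sds lies at chr5:120476547-120483932, and its start region, chr5:120475927-120476844, reached 2.71, 2.46 and 2.53 (2.57 ± 0.126), above 19.1% of open starts. It was the lowest of the 6 and the one with the smallest SD.

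Of the other 3 genes, Hsd17b13 was tall, Aldh1b1 was intermediate and Cyp2f2 was low. Hsd17b13 lies at chr5:103955442-103977388, and its start region, chr5:103976316-103977763, reached 6.82, 8.80 and 7.74 in replicates 1, 2 and 3 (7.79 ± 0.991, SD, n = 3). Aldh1b1 lies at chr4:45799022-45804608, and its start region, chr4:45798863-45800480, reached 4.09, 5.07 and 3.74 (4.30 ± 0.691). Cyp2f2 lies at chr7:27119955-27133660, and its start region, chr7:27119542-27120184, reached 3.58, 0.577 and 3.93 (2.70 ± 1.84). For both Hsd17b13 and Aldh1b1 the library labelled EV replicate 2 was the highest of the 3, and for Cyp2f2 it was the lowest by far. In the order Gls2, Hal, Hsd17b13, Aldh1b1, Cyp2f2, Sds, the ranges of Hsd17b13 and Aldh1b1 do not overlap, while every other pair of neighbours overlaps. In replicates 1 and 3 alone, the ranges of Hal and Hsd17b13 do not overlap either, nor do those of Cyp2f2 and Sds. Without the library labelled EV replicate 2 the mean of Cyp2f2 was 3.76, close to that of Aldh1b1 at 3.91, and Sds alone stayed below 3, at 2.62.

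Among starts called in all 3 libraries, few were as low in the library labelled EV replicate 2, relative to the others, as that of Cyp2f2. Its height in the library labelled EV replicate 2 was 0.154 times the mean of replicates 1 and 3, and 4 of the 13881 open starts, or 0.0288%, had a ratio that low, Cyp2f2 among them. The median ratio over these starts was 1.09, and 31.3% were below 1. Starts too low for a call in the library labelled EV replicate 2 have no ratio and are left out of this ranking. A start peak in both replicates 1 and 3 was called at 13967 genes, and 13881 of them had a ratio. The authors' fold enrichment for the Cyp2f2 start peak, which is relative to the local background of its own library, was 4.94, 1.73 and 5.28 in replicates 1, 2 and 3, and its −log10 q was 121, 3.40 and 172. Scaling each library by the median pileup of its own peak list gave a ratio of 0.194. The other 5 genes had start ratios of 0.750 for Hal, 0.941 for Sds, 1.11 for Gls2, 1.21 for Hsd17b13 and 1.30 for Aldh1b1. Under the second scaling these were 0.948, 1.19, 1.41, 1.53 and 1.64, so the ratio of Sds moved above 1 with it. Cyp2e1, a P450 gene of the opposite, pericentral zone, had start heights of 5.37, 2.78 and 5.55, a ratio of 0.509.

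The windows around the 6 genes were dense in shared regions. There were 20 at Sds, 16 at Hal, 16 at Hsd17b13, 14 at Aldh1b1, 13 at Cyp2f2 and 12 at Gls2, with a median of 15, against a median of 8 over all protein-coding genes (quartiles 3 and 13). Sds exceeded 95.4% of all genes by this count and Gls2 exceeded 72.1%. Per 100 kb of window the 6 had 10.4 to 18.6 shared regions, against a median of 5.93. Peaks also covered more of the gene bodies, with 42.0 ± 2.22% of Aldh1b1, 17.6 ± 0.229% of Cyp2f2, 17.5 ± 6.49% of Sds, 15.03 ± 2.13% of Gls2, 11.2 ± 1.01% of Hal and 10.6 ± 1.82% of Hsd17b13 (SD, n = 3), against a median of 4.83% over all genes. Aldh1b1 is a short gene whose start region alone is 1618 bp long. High counts and cover were not particular to the 6. The median count was 20.5 for the hepatocyte markers, 15 for the further periportal genes described below and 12 for pericentral genes. The median cover was 27.8%, 15.6% and 10.4% in that order, against 16.3% for the 6. Per library, the windows held 18 to 19 peaks at Hal, 25 to 29 at Sds and 12 to 16 at Gls2, where the library labelled EV replicate 2 had 12 and both others had 16.

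**Figure D2:**
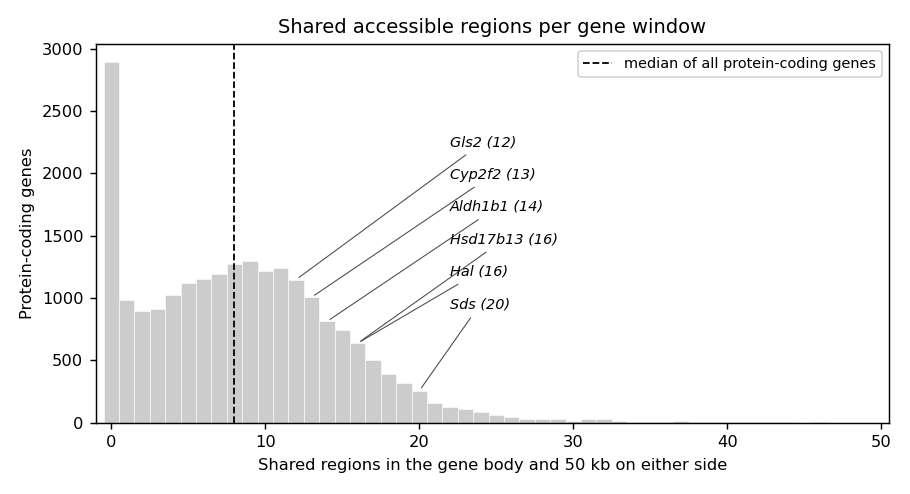
Number of protein-coding genes (vertical axis) by the number of shared regions in the gene body and 50 kb on either side (horizontal axis), with the 6 genes marked. All 6 lie to the right of the median of 8, and 20 genes with more than 50 shared regions, up to 75, fall outside the axis.

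Most of these regions were not at the members' own starts. Of the 91 shared regions, 6 were the start regions, 10 others touched the body of a member, 21 lay within 1000 bp of the start or end of a neighbouring gene, and 54 lay elsewhere. Median heights were 6.04 at the 6 starts, 3.83 in the bodies, 5.0 at the neighbours and 1.91 elsewhere. Over all 91 the median was 2.70, against 1.71 over all shared regions. The median coefficient of variation over the 3 libraries was 15.5% in the windows and 19.3% over all shared regions. The 48 regions that were not shared comprised 21 in 2 libraries and 27 in 1, and they were low, at most 2.91. Shared regions made up 65.5% of the regions in the windows and 61.5% of all regions. Of the 48, 14 were in replicates 1 and 3 without the library labelled EV replicate 2, and 19 were in that library alone. The same split over all regions was not counted, so these 2 counts are not read as a trait of the windows.

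**Figure D3:**
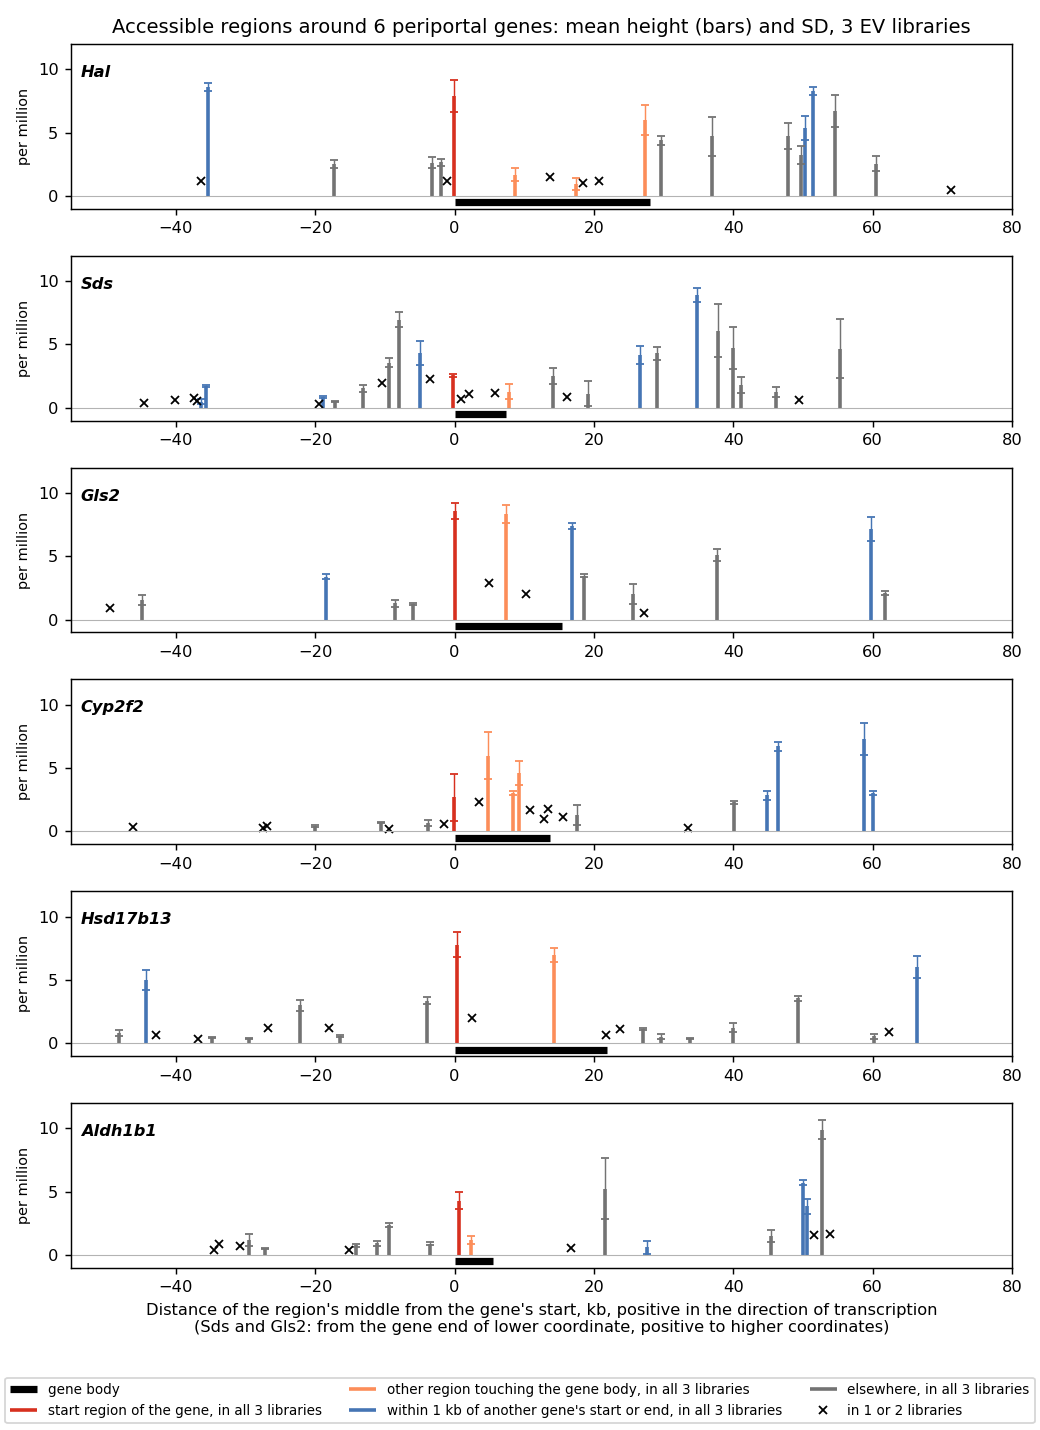
Mean height, in normalised pileup with its SD over 3 EV libraries, of every region in the 6 windows by its distance in kb from the gene's start, with crosses for regions in 1 or 2 libraries. Tall regions stand inside Hal, Gls2, Cyp2f2 and Hsd17b13, and the tallest of all, at 9.90, lies 52.7 kb past the start of Aldh1b1.

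At Hal the start and the starts of the surrounding genes were of like height. Over 3 libraries the neighbours Lta4h and Amdhd1 had higher means than the Hal start, while replicates 1 and 3 alone put the Hal start first in the window, at 8.61, against 8.45 for Lta4h and 8.34 for Amdhd1. The start of Lta4h, which encodes leukotriene A4 hydrolase, reached 8.41, 8.997 and 8.50 in replicates 1, 2 and 3 at chr10:93452725-93454203. A region at chr10:93539573-93540762, 51.4 kb past the Hal start, reached 8.64, 8.16 and 8.04 and touches the starts of both Ccdc38 and Amdhd1, so the height cannot be assigned to either. Amdhd1 encodes the imidazolonepropionase of the same histidine pathway as Hal. Another region inside Ccdc38, chr10:93543168-93543621, reached 6.83, 5.39 and 7.95. Inside Hal itself, the tallest was near the far end of the gene, at chr10:93515621-93516469, 27.3 kb from the start, with 6.69, 4.67 and 6.63 (5.997 ± 1.15, SD, n = 3). The library labelled EV replicate 2 was the lowest at all 4 shared regions of the Hal body and start, with a median ratio of 0.640, and a further region inside Hal at chr10:93502408-93502653 had 1.56 and 1.37 in replicates 1 and 3 and no peak in that library.

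The window of Sds held the highest count but no tall region inside the gene. Besides the start, 1 shared region touched Sds, chr5:120483313-120485396 at the end of higher coordinate, which it shares with the neighbour Plbd2, at 1.83, 0.646 and 1.38 in replicates 1, 2 and 3. The tallest regions of the window were the start or end of Slc8b1, a sodium/calcium exchanger gene of mitochondria, with 8.62, 8.51 and 9.51 at chr5:120510970-120511755, and a region inside Sdsl at chr5:120468253-120468894 with 6.35, 7.59 and 6.95. Sdsl is the serine dehydratase-like gene, a paralog of Sds beside it. Its own start or end reached 5.02, 3.23 and 4.70. Slc8b1 also held chr5:120514090-120514758, with 7.13, 3.68 and 7.42. In the same gene body chr5:120531396-120532345 was lower still in the library labelled EV replicate 2, with 6.01, 1.95 and 6.06 (4.67 ± 2.36, SD, n = 3; 6.03 without that library). That library was the highest at chr5:120517300-120517922, also inside Slc8b1, with 1.42, 2.55 and 1.49, and at chr5:120494882-120496437 inside Plbd2, with 0.531, 2.26 and 0.545. The tallest region missing from a library, chr5:120472723-120473197, had 2.68 and 1.85 in replicates 1 and 3.

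Gls2 combined a tall start with a region inside the gene that was as tall. It lies 7.32 kb into the gene from the end of lower coordinate, at chr10:128201409-128202512, and reached 8.69, 8.78 and 7.56 in replicates 1, 2 and 3 (8.34 ± 0.681, SD, n = 3). All 3 libraries were close to their values at the start region. Next in height were the start of Spryd4 with 7.60, 7.19 and 7.38 and the start of Apon with 8.06, 6.17 and 7.27. The Spryd4 region also lies within 1000 bp of the Gls2 end of higher coordinate, so its height cannot be assigned to either gene. Mip, which encodes the major intrinsic protein of the eye lens, and Timeless had no start peak. Between the start and the tall internal region, chr10:128199433-128199765 had 3.07 and 2.74 in replicates 1 and 3 and no peak in the library labelled EV replicate 2.

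Cyp2f2 held regions inside the gene that were taller than its start. Its tallest internal region, chr7:27124344-27125317, 4.88 kb from the start, reached 7.19, 3.82 and 6.95 in replicates 1, 2 and 3 (5.99 ± 1.88, SD, n = 3; 7.07 without the library labelled EV replicate 2). In each library this was taller than the start. A second internal region, chr7:27128700-27129686, reached 5.12, 3.56 and 5.24. The third, chr7:27128217-27128511, was nearly level, at 3.16, 2.85 and 3.04, and was lower than the start in replicates 1 and 3. All 4 shared regions of the gene were lower in the library labelled EV replicate 2 than the mean of replicates 1 and 3, with a median ratio of 0.613, and chr7:27123391-27123635 inside the gene had no peak there, against 2.15 and 2.55 in replicates 1 and 3. Near the far end of the gene, chr7:27133198-27133478 at 1.81 and chr7:27132691-27132890 at 0.982 were called in that library only. The starts of the neighbours Rab4b, Mia and Egln2 had ratios of 1.34, 0.951 and 0.934. Rab4b reached 6.49, 8.78 and 6.67 and Egln2, which encodes an oxygen-sensing prolyl hydroxylase, reached 6.64, 6.42 and 7.11. Mia stood at 3.21, 2.94 and 2.99. Cyp2t4, a P450 gene beside Cyp2f2, had a start peak in the library labelled EV replicate 2 only, at 0.258.

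Hsd17b13, like Gls2, had 1 other tall region inside the gene. At chr5:103962572-103963791, 14.2 kb from the start, it reached 7.12, 6.40 and 7.46 in replicates 1, 2 and 3 (6.99 ± 0.542, SD, n = 3) and its range overlapped that of the start region. The neighbour Klhl8 reached 5.42, 7.0 and 5.65 at a gene end. Hsd17b11, the paralog that also encodes a lipid droplet protein, lies beside Hsd17b13, and its start reached 5.30, 4.11 and 5.59. The ranges of the Hsd17b13 and Hsd17b11 starts do not overlap. The tallest region missing from a library, chr5:103974686-103975000 inside Hsd17b13, had 1.64 and 2.29 in replicates 1 and 2 and no peak in replicate 3.

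Aldh1b1 was the gene whose window was taller in the library labelled EV replicate 2, with a median ratio of 1.22 over its shared regions. The region of greatest height in all 6 windows, chr4:45851361-45852127, lies inside Stra6l, 52.7 kb past the start of Aldh1b1, and reached 9.31, 10.8 and 9.66 in replicates 1, 2 and 3 (9.90 ± 0.755, SD, n = 3). The start of Stra6l itself reached 5.98, 5.63 and 5.56. A region inside Igfbpl1 at chr4:45819950-45821226 reached 4.195, 7.97 and 3.52 (5.23 ± 2.40; 3.86 without the library labelled EV replicate 2). A gene end of Igfbpl1 had 0.416, 1.22 and 0.247. Within Aldh1b1, the region chr4:45800757-45802063 reached 1.30, 1.39 and 0.834. Of the 14 shared regions in this window, 2 were lower in the library labelled EV replicate 2 than the mean of replicates 1 and 3, while 58.6% of all shared regions were. The counts were 13 of 16 at Hal, 11 of 20 at Sds, 8 of 12 at Gls2, 11 of 13 at Cyp2f2 and 9 of 16 at Hsd17b13. The tallest region missing from a library, chr4:45852871-45853070, was called in replicate 3 only, at 1.70.

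Set against all shared regions, the 6 windows together were not unusual in the library labelled EV replicate 2, but the genes differed among themselves. The median ratio of its heights to the mean of replicates 1 and 3 was 0.934 over the 91 regions, against 0.921 over all shared regions. It was at least 1.5-fold lower at 22 of the 91 (24.2%), close to the 24.3% of all shared regions, and at least 1.5-fold higher at 7 (7.69%), against 13.2%. By the same measure 3 of the 91 regions were lower and 5 higher in replicate 1 (7.54% and 8.59% of all shared regions), and 7 were lower and 4 higher in replicate 3 (8.63% and 5.68%). Within the gene bodies and starts, 11 of 16 regions had a ratio below 1, against 58.6% of all shared regions. Of the 16, 10 were below the median of all shared regions. Their median was 0.814, against 0.945 over shared regions in any gene body. Each gene held only 2 to 4 such regions. Those below 1 were 4 of 4 in Hal, 4 of 4 in Cyp2f2, 2 of 2 in Sds and 1 of 2 in Hsd17b13, with none of 2 in Gls2 and none of 2 in Aldh1b1. At 5 of the 16 the library was at least 1.5-fold lower, against 23.1% of shared regions in any gene body. Scaling by the median of each peak list shifted the ratio of all shared regions by 0.34 on the log2 scale, to 1.16. Under it the library was at least 1.5-fold lower at 10 of the 91 regions, against 13.52% of all shared regions. Of the 16, 8 were below 1, which were 4 in Hal, 3 in Cyp2f2 and 1 in Sds. The share of all shared regions below 1 under that scaling was not counted.

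**Figure D4:**
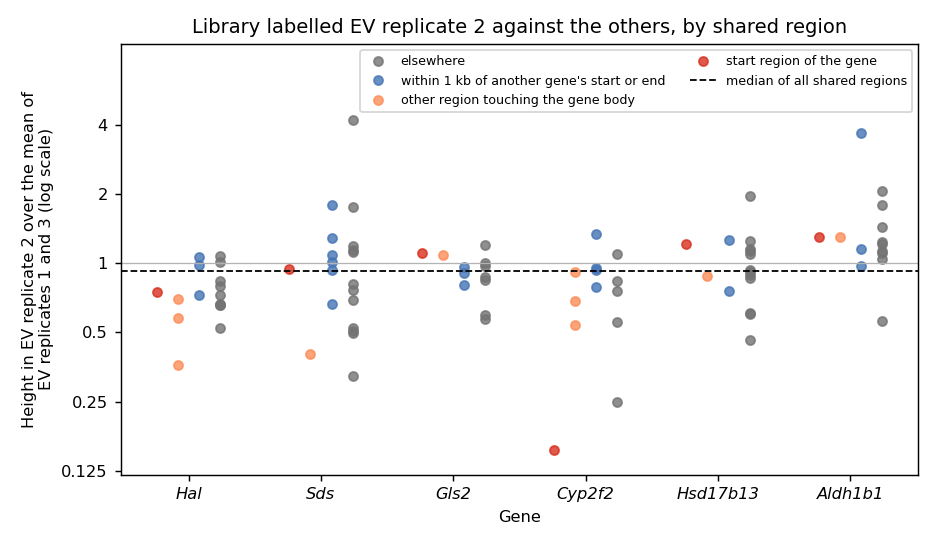
Height of each shared region in the library labelled EV replicate 2 over the mean of EV replicates 1 and 3 (log scale), by gene and by place, with the median of all shared regions, 0.921, as a dashed line. Regions of the Hal and Cyp2f2 bodies lie below that line and those of Gls2 and Aldh1b1 lie above it, with the Cyp2f2 start lowest at 0.154.

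The share of regions that were low in that library differed between lists of genes. A list of 15 further periportal genes, which was drawn up knowing earlier results of these data, had 242 shared regions in its windows, and 102 of them (42.1%) were at least 1.5-fold lower in the library labelled EV replicate 2, against 24.2% in the windows of the 6 genes and 24.3% of all shared regions. Apof of this list lies 58.7 kb from Gls2, so some regions are in the windows of both. Without Cps1, whose window alone held 40, the share was 76 of 202 (37.6%). In 15 pericentral genes it was 43 of 177 (24.3%). The share was above that of all shared regions in several lists not drawn by zone, at 32.9% for hepatocyte markers, 31.03% for endothelial markers, 39.0% for histidine breakdown, which holds Hal, and 30.3% for serine and threonine breakdown, which holds Sds, and also for glutamine and glutamate metabolism, which holds Gls2. It was 12.5% for housekeeping genes, 7.14% for cholangiocyte markers, 2.44% for stellate cell markers and 0% for Kupffer cell markers. The next count took shared regions in the gene body or within 1000 bp of its start, or of either end where no start was given. Their median ratio was below that of all shared regions at 13 of the 15 further periportal genes and at 8 of the 15 pericentral genes. That count was not made over all genes. At the starts the ratio was below 1 at 9 of 14 further periportal genes and at 8 of the 15 pericentral genes, against 31.3% of all open starts. Pigr, a further periportal gene, had no start peak in that library and so has no ratio. Arg1, the arginase of the urea cycle, had start heights of 8.46, 4.70 and 8.37 in replicates 1, 2 and 3, and Pck1, a rate-limiting enzyme of glucose production, had 9.68, 10.02 and 10.5. Over whole lists the summed start height of stellate cell markers was 11.97 in the library labelled EV replicate 2, against 8.66 and 8.52 in replicates 1 and 3, and that of hepatocyte markers was 51.7, against 57.6 and 56.4. A start without a call added nothing to these sums. Des of the stellate list, Krt7 of the cholangiocyte list and C1qa of the Kupffer cell list were called only in the library labelled EV replicate 2. Summed heights in replicates 1, 2 and 3 were 7.09, 7.96 and 6.81 for cholangiocyte markers, 4.39, 2.98 and 4.22 for endothelial markers, and 0, 0.258 and 0 for Kupffer cell markers. The part of these in the results was not tested.

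Genes of both zones had open starts. Start peaks were present in all 3 libraries at 6 of 6 of these genes, 14 of 15 further periportal genes and 15 of 15 pericentral genes, against 63.4% of all genes. The exception was Pigr, the polymeric immunoglobulin receptor, with 3.02 and 3.20 in replicates 1 and 3 and no start peak in the library labelled EV replicate 2. The median heights were 6.04 for the 6, 7.65 for the further periportal genes and 4.39 for the pericentral ones. The further periportal genes ran from Ctsc, which encodes cathepsin C, at 2.08 ± 0.210 to Pck1 at 10.05 ± 0.388, and the pericentral ones from Slc1a2, a glutamate transporter gene, at 0.769 ± 0.111 to Tbx3, a Wnt-responsive transcription factor gene, at 9.30 ± 0.145 (SD, n = 3). Housekeeping genes, with 8 of 8, had a median of 8.15, from Hprt at 5.15 to Gapdh at 9.23.

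**Figure D5:**
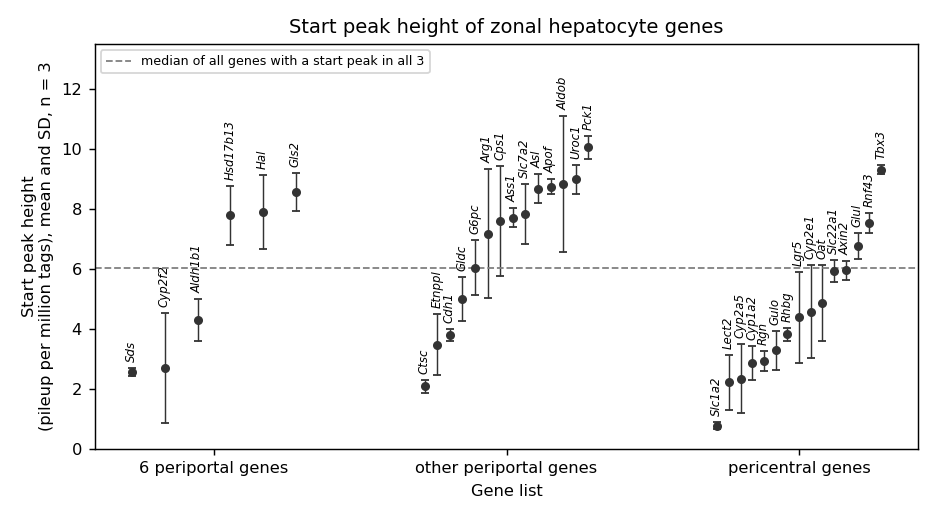
Mean start peak height, in normalised pileup with its SD over 3 EV libraries, of the 6 periportal genes, 14 further periportal genes with a start peak in all 3 libraries and 15 pericentral genes, in order of height within each list. The 3 lists overlap over most of their range around the median of all open starts, 6.02.

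Nearly all listed genes in the pathways of the 3 amino acid enzymes had a start peak in all 3 libraries. Over all protein-coding genes the share was 63.4%, and housekeeping genes had 8 of 8. Histidine breakdown had a start peak in all 3 libraries at 4 of 4 genes, with Uroc1, the urocanase that acts after Hal, at 8.65, 9.55 and 8.74 in replicates 1, 2 and 3, Amdhd1 at the shared region given above, and Ftcd, a folate-dependent enzyme at the end of the pathway, at 6.39, 5.98 and 5.95. Hal and Ftcd did not overlap in range. Serine and threonine breakdown had 6 of 7. The highest mean was that of Shmt1, a serine hydroxymethyltransferase gene, at 6.06, 7.69 and 6.31, but this turns on the library labelled EV replicate 2, since its paralog Shmt2, at 8.005, 3.04 and 7.45, was taller in replicates 1 and 3. Sds was the lowest of those 6, and Tdh, the threonine dehydrogenase gene, had a peak in the library labelled EV replicate 2 only, at 0.499. Glutamine and glutamate metabolism had 8 of 8, led by Glud1, glutamate dehydrogenase, at 10.5, 11.6 and 10.6. Glul, the pericentral glutamine synthetase that runs opposite to Gls2, had 7.26, 6.45 and 6.56, and its range did not overlap that of Gls2.

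By start height over the 3 libraries, the listed gene nearest to each of the 6 was found as the smallest Euclidean distance in log2 height among 64 candidates, as a description over 3 libraries. It was Slc7a2, an arginine transporter gene, for Hal (distance 0.08; heights 8.59, 6.70 and 8.22 in replicates 1, 2 and 3), and Apof, an apolipoprotein gene 58.7 kb from Gls2, for Gls2 (0.14; 8.49, 9.01 and 8.72). Psmb2, a proteasome subunit gene, was nearest to Hsd17b13 (0.14; 7.39, 8.51 and 7.48), Lgr5, a Wnt pathway receptor gene, to Aldh1b1 (0.35; 3.73, 6.13 and 3.31), and Rgn, which encodes regucalcin, to Sds (0.43; 2.77, 3.30 and 2.71). Over the 3 libraries Cyp2f2 had no close match, its nearest being the endothelial gene Tie1 at a distance of 1.80, with 3.96, 2.01 and 3.79. Cyp2f2 stood at 0.577 in the library labelled EV replicate 2. In replicates 1 and 3 Cyp2f2 stood at 3.58 and 3.93, beside 3.57 and 3.94 at the pericentral gene Rhbg. Rhbg was at 3.96 in the library labelled EV replicate 2. Distances without that library were not computed.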

How the data were processed

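ATAC-seq peak lists of 3 EV libraries were used. Per the submitters' processing notes the tools were Bowtie2, Picard, deepTools and MACS2 and the build mm10; alignment settings are not given in the sources used here. Peaks were called on each library alone, with no control, by MACS 2.2.7.1, per the file headers, with reads shifted by 100 bp towards 5′ and extended to 200 bp, duplicates kept, and a q cutoff of 0.05. The pileup signal at each summit was deposited by the authors unscaled for depth. Fold enrichment, deposited by the authors, is the ratio of that pileup to a background taken regionally across 10000 bp. The −log10 p and q values deposited by the authors test it within its own library. Fold and q are theirs and were used within 1 list at a time, for description and for filters.

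Rows with equal chromosome, start and end were 1 peak. Pileups were scaled to 1000000 of the tags in the header (96066404, 116147036 and 117450440). A peak list holds no counts where nothing was called, so absence means only that the threshold was not passed, and no counting interval can be given. Gene positions and promoter sequences came from RefSeq GRCm38.p6, which shares its coordinates with mm10; 17492 genes were placed by start and 4395 by either end. The members and the 12 gene lists (99 entries, all matched) were chosen with earlier results of these data known. Besides the 6 genes, names were drawn from their annotated neighbours, 8 set comparison genes, each list's highest, lowest and missing genes, each member's start region, its 3 tallest other shared regions, its tallest body region and its tallest region not shared; other regions and genes were chosen after their values were seen. The values of 1 of the comparison genes are not reported here. No test was run. The scripts, in Python 3.11.15 with pandas 2.3.3 and numpy 2.4.6, recovered what simulated peak lists were made with. Alternatives covered the peak threshold, windows, overlap, scaling and leaving out each library.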

Additional observations from a re-analysis of the deposited data

How the results depend on the processing

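Start peaks stood at 6 of 6 genes without any 1 library, with windows of 500 or 2500 bp and in any library; 5 and 4 remained under the stricter thresholds given above. A 50% overlap rule has no bearing on that count and was not run for it. The median count of shared regions was 8 with 50000 peaks per library (4 over all genes), 6 with 10 kb flanks (3), 25.5 with 100 kb (14) and 2 in the body alone (1), and 15.5 to 17 without 1 library; all 6 genes were above the median of all genes under each of these. The median start height was 5.60 to 6.08 without 1 library, 5.60 being that without the library labelled EV replicate 2. The median ratio of that library to the others was 1.18 when scaled by each list's median, against 1.16 over all shared regions, with 10 of 91 regions at least 1.5-fold lower in place of 22; the same ratio for replicate 1 was 1.07 and for replicate 3 was 1.03. Endothelial markers had 1 start peak in all 3 libraries at a −log10 q of 10 or more. Of the other values, 94 moved by less than their spread and 20 by more. No paired analysis was possible because the libraries form 1 group. Depth limits calls of low peaks, and 3 libraries limit every SD.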
